A study of Mus musculus with 8 samples.

Results

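Elane, Mpo, Prtn3, Ctsg, Cebpe and Gfi1 are genes of early neutrophil formation, 4 of them enzymes of the primary (azurophil) granule and 2 of them transcription factors of granulocyte progenitors. They were taken by name, with earlier results of these data known. All 6 were found among the 51826 genes of the count table, and all 6 were among the 16484 genes that passed the filter on low counts.

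Neutrophils form from granulocyte-monocyte progenitors in the bone marrow and, in mice, also in the red pulp of the spleen. The primary granule is filled at the promyelocyte stage, and the mRNAs of its enzymes are lost as the cell matures, so that a mature neutrophil carries the proteins with little of their mRNA. Secondary and tertiary granule genes follow at the myelocyte and later stages, and retinoic acid, acting through its receptor RAR alpha, is known to drive promyelocytes towards mature granulocytes.

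Total splenocytes, freed of red blood cells by lysis, were taken from 8 female Balb/c mice aged 3 months, and each mouse gave 1 RNA-seq library. The 4 tRA mice had received all-trans-retinoic acid, the active metabolite of vitamin A, at 1 mg/kg body weight by mouth every day from weaning at 3 weeks of age, and the 4 control mice had received the vehicle, canola oil. No mouse had received pristane, the lupus-inducing agent used elsewhere in the study. The groups follow the sample titles, since the protocol text in the labels gives the tRA dose for all 8 mice.

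Counts on genes totaled 37539631, 31833853, 35924683 and 30919272 in control mice 1 to 4. In tRA mice 1 to 4 they totaled 33755595, 31810417, 35165876 and 32042754. Levels are given as CPM, counts scaled to a common library size by TMM, and differences as log2 fold changes of tRA over control with the SE and 95% confidence interval (CI). The comparison asks whether tRA alone, before any lupus was induced, changed the transcripts of these genes in the spleen.

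Levels of the primary granule enzymes were lower on average in tRA mice, by log2 fold changes between -1.03 and -0.80, and Cebpe was lower to a like degree, whereas Gfi1 was nearly level between the groups. By the quasi-likelihood test of edgeR, adjusted after Benjamini and Hochberg, 0 of the 6 genes had an FDR under 0.1, as had 0% of all genes tested, so none of the 6 passed the test. At an unadjusted p under 0.05, 5 of the 6 were lower with tRA, against 3.55% of all genes tested that were lower and 2.94% that were higher. In 3 of the 6, Elane, Prtn3 and Ctsg, every tRA mouse lay below every control mouse, against 1.63% of all genes tested, while 1.91% lay above in the same way. The median log2 fold change was -0.83 over the 6 genes and 0.00136 over all genes tested. Because the 6 were chosen with earlier results of these data known, these shares and medians are descriptions and no test of the set. In total splenocytes, fewer cells of the granulocyte lineage and less mRNA per cell cannot be told apart.

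Elane (ENSMUSG00000020125) encodes neutrophil elastase, a serine protease that cleaves elastin and bacterial proteins, and lies on the plus strand of chromosome 10 from 79886247 to 79888215 (GRCm38). Its level was 2.92, 3.49, 2.95 and 4.04 CPM in control mice 1 to 4 and 0.550, 1.42, 1.93 and 2.63 CPM in tRA mice 1 to 4. The groups did not overlap, and tRA mouse 1 was the lowest of the 8. The mean was 3.35 ± 0.529 CPM (SD, n = 4) in control and 1.63 ± 0.875 CPM (SD, n = 4) in tRA mice. The log2 fold change was -1.03 (SE 0.355, 95% CI -1.82 to -0.25), with an unadjusted p of 0.0144 and an FDR of 0.757 from edgeR's quasi-likelihood test.

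Prtn3 (ENSMUSG00000057729), the gene of proteinase 3, a close relative of elastase, lies next to Elane on the same strand of chromosome 10 from 79874476 to 79883174, with 3072 bp between the annotated ends of the pair. It measured 2.73, 3.02, 3.12 and 3.23 CPM in control mice 1 to 4 and 0.672, 1.42, 2.06 and 1.92 CPM in tRA mice 1 to 4. Control mice were close to each other, tRA mice were spread out below them, and tRA mouse 1 was again the lowest. The mean was 3.03 ± 0.214 CPM (SD, n = 4) in control and 1.52 ± 0.629 CPM (SD, n = 4) in tRA mice. This gave a log2 fold change of -0.99 (SE 0.287, 95% CI -1.62 to -0.36), and the edgeR p was 0.00562 before adjustment and 0.757 after it. Prtn3 stood at rank 108 of all genes tested by p, the foremost of the 6 genes.

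Ctsg (ENSMUSG00000040314) encodes cathepsin G, the chymotrypsin-like protease of the granule, and lies on the minus strand of chromosome 14 from 56099881 to 56102574. Its CPM was 1.00, 1.68, 1.33 and 1.13 in control mice 1 to 4 and 0.764, 0.567, 0.813 and 0.703 in tRA mice 1 to 4. No tRA mouse reached the lowest control mouse, but the order within the tRA group differed from that of Elane and Prtn3, with tRA mouse 2 the lowest. This order rests on only 18 to 30 counts per tRA mouse. The mean was 1.29 ± 0.296 CPM (SD, n = 4) in control and 0.712 ± 0.107 CPM (SD, n = 4) in tRA mice. The log2 fold change was -0.85 (SE 0.248, 95% CI -1.39 to -0.30), with an edgeR p of 0.00600 and an FDR of 0.757.

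Mpo (ENSMUSG00000009350) encodes myeloperoxidase, which makes hypochlorous acid and is the enzyme of the 4 that is no protease, and lies on the plus strand of chromosome 11 from 87793581 to 87804413. Its level was 10.7, 17.3, 15.3 and 15.6 CPM in control mice 1 to 4 and 4.52, 7.49, 13.3 and 8.43 CPM in tRA mice 1 to 4. The groups overlapped, because tRA mouse 3 exceeded control mouse 1. Here the mean was 14.7 ± 2.86 CPM (SD, n = 4) in control and 8.44 ± 3.65 CPM (SD, n = 4) in tRA mice, a log2 fold change of -0.80 (SE 0.272, 95% CI -1.40 to -0.20). For Mpo the edgeR p was 0.0137 and the FDR 0.757.

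Cebpe (ENSMUSG00000052435) encodes C/EBP epsilon, the transcription factor that carries promyelocytes into the stage of secondary granule formation, and lies on the minus strand of chromosome 14 from 54710360 to 54712174. It measured 1.95, 2.86, 2.80 and 2.04 CPM in control mice 1 to 4 and 0.886, 1.10, 1.30 and 2.17 CPM in tRA mice 1 to 4. Of the tRA mice, 3 were below every control mouse, and tRA mouse 4 lay above control mice 1 and 4. The mean was 2.41 ± 0.487 CPM (SD, n = 4) in control and 1.36 ± 0.563 CPM (SD, n = 4) in tRA mice. The log2 fold change was -0.82 (SE 0.282, 95% CI -1.44 to -0.20), with an edgeR p of 0.0145 and an FDR of 0.757.

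Gfi1 (ENSMUSG00000029275) encodes a zinc finger repressor that neutrophil formation requires and that lymphocytes also express, and lies on the minus strand of chromosome 5 from 107716657 to 107726036. Its level was 17.5, 16.1, 20.1 and 16.9 CPM in control mice 1 to 4 and 21.7, 17.1, 13.7 and 13.2 CPM in tRA mice 1 to 4. The tRA group held both the highest mouse, tRA mouse 1, and the lowest, tRA mouse 4, and so spanned the control group. The mean was 17.6 ± 1.71 CPM (SD, n = 4) in control and 16.4 ± 3.91 CPM (SD, n = 4) in tRA mice. The log2 fold change was -0.10 (SE 0.153, 95% CI -0.44 to 0.23). The edgeR p was 0.510 and the FDR 0.901.

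**Figure D1:**
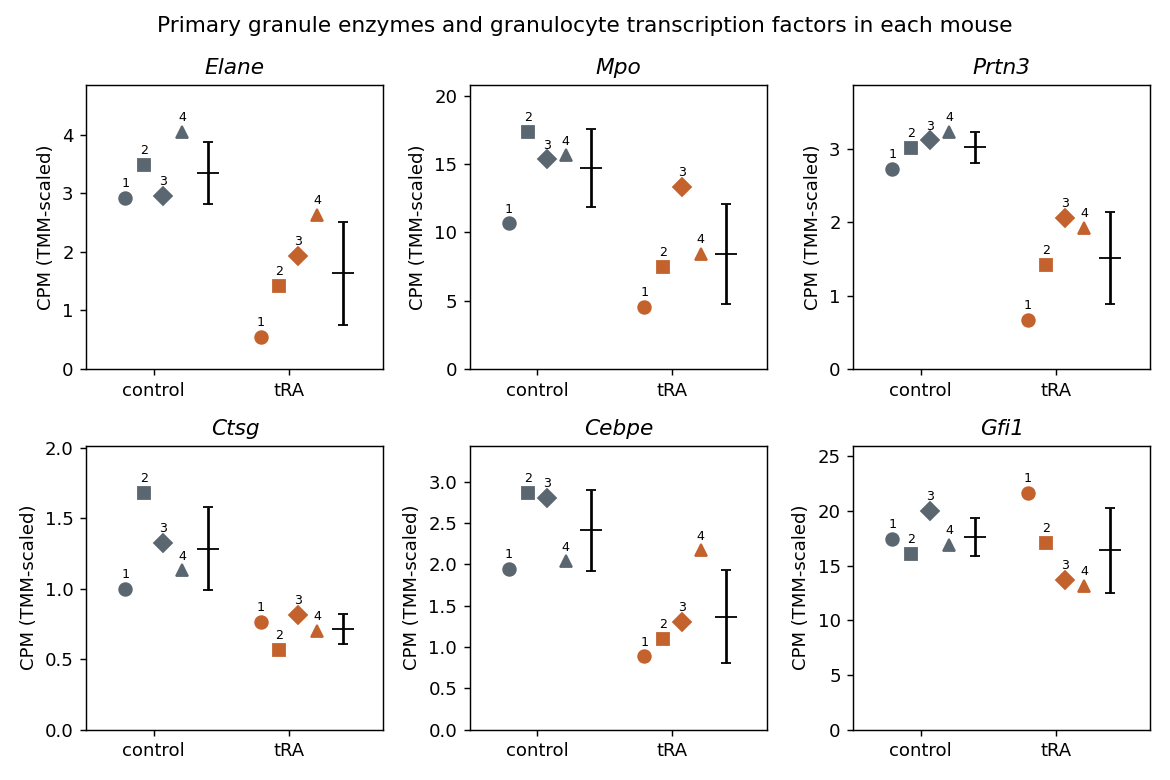
Level of each of the 6 genes in CPM (vertical axes, from 0) in the 4 control and the 4 tRA mice, with the mouse number beside each point and the mean ± SD (n = 4) to the right of each group. Elane, Prtn3 and Ctsg have no overlap between the groups, Mpo and Cebpe overlap through tRA mouse 3 and tRA mouse 4 respectively, and for Gfi1 the tRA mice span the control mice.

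Most of these levels rest on few reads, and the precision differs from gene to gene. Elane had 102 to 125 counts in control mice and 18 to 86 in tRA mice. The 18 counts of tRA mouse 1 carry an exact Poisson 95% interval of 10.7 to 28.4 counts, and such intervals cover counting error only. For Ctsg the counts were 35 to 54 and 18 to 30, and the interval of 0.549 to 1.16 CPM for tRA mouse 3 overlaps that of 0.705 to 1.38 CPM for control mouse 1. The intervals of the closest mice overlap for Elane too, at 2.10 to 3.25 CPM for tRA mouse 4 and 2.40 to 3.53 CPM for control mouse 1, and for Prtn3, at 1.62 to 2.58 CPM for tRA mouse 3 and 2.23 to 3.32 CPM for control mouse 1. Mpo and Gfi1 are better measured, with 148 to 557 and 431 to 709 counts. For Mpo the interval of 12.2 to 14.5 CPM for tRA mouse 3 lies above that of 9.64 to 11.8 CPM for control mouse 1, so this overlap of the groups exceeds counting error.

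Compared per length, as TPM (counts per kb of exon, scaled to the same sum in each library), the order of mean levels in control mice was Gfi1 at 16.4, Mpo at 12.8, Elane at 10.2, Cebpe at 5.77, Prtn3 at 5.19 and Ctsg at 3.70 TPM. In tRA mice the order was the same, with means of 15.9, 7.80, 5.26, 3.47, 2.78 and 2.15 TPM. Neighbours in this order were often within their spread. In control mice, Mpo (SD 2.66, n = 4) and Elane (SD 1.91, n = 4) overlapped, as did Cebpe and Prtn3. Gfi1 stood apart from the others in tRA mice, where its lowest value, 13.3 TPM in mouse 4, was above the highest of Mpo, 12.8 TPM in mouse 3.

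The tRA mice varied more among themselves than the control mice for 5 of the 6 genes. For Elane the coefficient of variation was 15.8% in control and 53.7% in tRA mice, and for Prtn3 it was 7.06% and 41.4%. From the lowest to the highest tRA mouse, Elane differed 4.78-fold and Prtn3 3.07-fold. Without tRA mouse 1 these values were 30.6% and 1.85-fold for Elane and 18.8% and 1.45-fold for Prtn3. Ctsg was the exception, with 23.0% in control and 15.0% in tRA mice. The difference in spread itself was not tested.

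Of the 8 mice, tRA mouse 1 was the lowest for Elane, Mpo, Prtn3 and Cebpe and the highest for Gfi1. Without it the log2 fold change was -0.75 for Elane, -0.59 for Mpo, -0.74 for Prtn3, -0.66 for Cebpe and -0.88 for Ctsg, and 5 of the 6 genes were still lower at an unadjusted p under 0.05 (edgeR), against 7.68% of all genes in that fit. For Gfi1 it became -0.27 (edgeR p of 0.0521, FDR 0.401). The number of genes at an unadjusted p under 0.05, of any kind, was 1070 with all 8 mice, 2105 without tRA mouse 1 and 657 without tRA mouse 4.

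With DESeq2, 0 of the 6 genes passed an FDR of 0.1, against 0.198% of the 13625 genes to which it gave an adjusted p. The DESeq2 FDR was 0.139 for Prtn3, 0.257 for Mpo, 0.294 for Elane, 0.341 for both Ctsg and Cebpe, and 0.930 for Gfi1. When DESeq2 was rerun with each mouse left out, an alternative chosen after the data were seen, Elane and Prtn3 passed without tRA mouse 1 (FDR 0.0877 and 0.0468), Mpo and Prtn3 without tRA mouse 3 (0.00422 and 0.0941), and Elane and Cebpe without tRA mouse 4 (0.0635 and 0.0714). In these 3 fits DESeq2 called 551, 20 and 20 genes of any kind, which is 3.92%, 0.137% and 0.119% of those with an adjusted p, against 27 with all 8 mice. Which genes pass by DESeq2 therefore depends on the mouse left out. By edgeR none of the 6 passed with any mouse left out.

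The mice did not keep a common order within the tRA group. Elane and Cebpe were lowest in mouse 1, then 2, 3 and 4, whereas Mpo and Prtn3 had mouse 3 above mouse 4. Gfi1 had the reverse of the order of Elane and Cebpe, with mouse 1 highest and mouse 4 lowest. Parts of these orders lie within counting error. The Poisson 95% intervals of tRA mice 3 and 4 overlap for Prtn3 (1.62 to 2.58 and 1.48 to 2.46 CPM) and Elane. For Mpo they do not (12.2 to 14.5 and 7.47 to 9.49 CPM). Those of tRA mice 1, 2 and 3 overlap for Cebpe, and those of all tRA mice overlap for Ctsg. To set the mean difference between the groups aside, the group mean was subtracted from each log2 level. The deviations of the 8 mice were then compared with the mean deviation of Elane, Mpo, Prtn3 and Ctsg. This gave Pearson's r of 0.963 for Prtn3, 0.944 for Mpo and 0.925 for Elane, each of which is part of that mean. For Ctsg, which is part of it too but rests on few counts, r was 0.278. For Cebpe and Gfi1, which are not part of it, r was 0.728 and -0.896. These are descriptions over 8 libraries. Because the tRA mice varied more than the control mice for Elane, Mpo and Prtn3, they weigh more in these r values. An uneven response to treatment among the tRA mice would remain in the deviations. Of the 13578 genes with a mean of at least 1 CPM, 166 reached r of 0.9 or more and 314 had -0.9 or less. An r as high as that of Cebpe or higher was found in 1286 other genes.

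The 10 genes most like the enzymes by this measure stood in none of the granulocyte lists. All 12 secondary and tertiary granule genes that were compared had a positive r, from 0.00219 to 0.914 with a median of 0.703. The lowest of these stood at rank 6656 of the 13578 genes compared, near the middle, so a positive r is common. All 9 red pulp macrophage genes, 9 of 10 monocyte genes and all 5 genes of basophils, mast cells and eosinophils compared had one too. It was 3 of 8 for B cell genes and 5 of 11 for mature neutrophil genes. Ngp had 0.774, Ltf 0.722 and Camp 0.391. Other lists reached as far, with a highest r of 0.922 among early progenitor genes and 0.917 among red pulp macrophage genes. Of the 10 genes most like the enzymes, Fv1, a retroviral restriction gene, led with r of 0.995. Others were Ganc at 0.990, Gm27010 at 0.988, Atp2b4 and Il18r1 at 0.982, Lfng at 0.975, Sugp2 at 0.971, and Zmat3 and Gm19721 at 0.967. Their log2 fold changes were between -0.02, for Ganc, and 0.61, for Gm19721, so that they varied with the enzymes between mice of the same group without being lower in tRA mice as the enzymes were. Of 15 cell cycle genes, 14 had a positive r, with a median of 0.736 over the list. Mki67 had 0.863, with 112.5 CPM in tRA mouse 3 and 35.6 CPM in tRA mouse 1, and Birc5 0.805, whereas Pcna, the most abundant, was the exception with -0.828, and their part in the result was not tested.

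Genes whose products share the primary granule with these enzymes, or serve them, were lower in part. Of 10 such genes, 8 were tested, 4 with a negative and 4 with a positive log2 fold change. By edgeR, 0 had an FDR under 0.1. At an unadjusted p under 0.05 by edgeR, 3 were lower and 0 higher, against 3.55% lower and 2.94% higher among all genes tested. The median log2 fold change was 0.0093, with -0.11 without control mouse 1. Ms4a3, a membrane protein of granulocyte-monocyte progenitors, measured 0.893, 0.996, 1.73 and 1.36 CPM in control mice and 0.458, 0.472, 0.895 and 0.703 CPM in tRA mice. Its log2 fold change of -0.97 (edgeR p of 0.0106, FDR 0.757) was close to that of Elane, although tRA mouse 3 lay just above control mouse 1. Cd63, a granule membrane protein, had -0.38 (edgeR p of 0.0196) with no overlap between the groups, and Slpi, an inhibitor of elastase and cathepsin G, had -0.26 (edgeR p of 0.0490).

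The remaining partners are made by many leukocytes and were near level. Ctsc, the cathepsin C that activates the serine proteases, had a log2 fold change of 0.11, Srgn, the proteoglycan that packs them, 0.15, Serpinb1a, another inhibitor of elastase, 0.10, Lyz2, lysozyme, 0.13, and Cst7, cystatin F, -0.08. Ctsc was at 153 CPM in control and 165 CPM in tRA mice, so its transcript far exceeded those of its substrates Elane, Prtn3 and Ctsg also per length, at 78.3 TPM in control mice. Prss57 and Bpi did not pass the filter, with 2 to 11 and 0 to 4 counts per library.

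Among 12 other regulators of granulocyte genes, 0 had an FDR under 0.1 by edgeR. At an unadjusted p under 0.05 by edgeR, 1 was lower and 0 higher, against 3.55% lower and 2.94% higher among all genes tested. The median log2 fold change was -0.14, with -0.065 without control mouse 2 and -0.17 without control mouse 3. The lower gene was Spi1, which encodes PU.1, with -0.18 (edgeR p of 0.0350, FDR 0.757). Cebpa, which acts before Cebpe, had -0.28, its relative Cebpd -0.13, Myb -0.14, Cbfb, the partner of Runx1, 0.14, Runx1 -0.06, and Irf8, which steers progenitors towards monocytes, -0.10. Gfi1b, the paralog of Gfi1 in erythroid cells and megakaryocytes, had -0.21 and Rara, the receptor gene, 0.08, and Csf3r, the G-CSF receptor of granulocytes, had 0.25. Each of the 12 had a higher p than Cebpe.

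Cebpb and Klf4, both of which are also induced quickly in activated cells, resembled Gfi1 in being uneven among the tRA mice. Cebpb measured 22.8, 18.6, 23.0 and 15.8 CPM in control mice and 20.5, 16.0, 5.99 and 8.77 CPM in tRA mice, a log2 fold change of -0.65 (edgeR p of 0.0633). Klf4 had a log2 fold change of -0.60 (edgeR p of 0.139), with 432, 362, 106 and 135 CPM in tRA mice 1 to 4. Nr4a1, the most abundant gene of the monocyte list, had 1680, 946, 159 and 233 CPM in these mice. In all of these genes and in Gfi1, tRA mice 3 and 4 were the lowest of the 8 mice. Deviations of Cebpb had r of -0.905 and those of Nr4a1 -0.921 with those of the enzymes, and their part in the values of Gfi1 was not tested.

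Genes of earlier progenitors had a median near 0. Of 10 such genes, 9 were tested, with a median log2 fold change of -0.01, which ranged from -0.22 without tRA mouse 3 to 0.08 without tRA mouse 1. By edgeR, 0 had an FDR under 0.1. At an unadjusted p under 0.05 by edgeR, 1 was lower and 0 higher, against 3.55% lower and 2.94% higher among all genes tested. Flt3, the most abundant, had -0.23, Sox4 was the lower gene with -0.52 (edgeR p of 0.0326), and Adgrl4 had the highest value, 0.22. The 10 genes summed to 49.1, 56.3, 45.5 and 58.5 CPM in control mice and 40.3, 49.2, 53.9 and 46.9 CPM in tRA mice, which overlap.

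Secondary and tertiary granule genes, which follow Cebpe in maturation, were lower in part. All 13 were tested, 0 had an FDR under 0.1 by edgeR, 6 were lower and 0 higher at an unadjusted p under 0.05, in 4 every tRA mouse lay below every control mouse, against 3.55% lower and 1.63% all below among all genes tested, and the median log2 fold change was -0.43, against -0.92 for Elane, Mpo, Prtn3 and Ctsg. Camp, the cathelicidin, had -1.23 (edgeR FDR 0.135), Ngp -0.92 and Ltf, lactoferrin, -0.88, and as with Elane their lowest mouse was tRA mouse 1. With DESeq2, 4 of the 13 passed an FDR of 0.1, against 0.198% of all genes with an adjusted p. Among the 4 were Camp (DESeq2 FDR 3.38e-10), Ngp (0.00112) and Ltf (0.0087), so the tools differ on these genes. Padi4 had the highest value of the list, 0.07.

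Mature neutrophil genes went both ways. Of 12 genes, 11 were tested, 6 with a negative and 5 with a positive log2 fold change. By edgeR, 0 had an FDR under 0.1. At an unadjusted p under 0.05 by edgeR, 3 were lower and 0 higher, against 3.55% lower and 2.94% higher among all genes tested. The median was -0.08, with -0.24 without tRA mouse 1 and 0.12 without tRA mouse 3. The lower genes were Ly6g, with the lowest value, -0.77, S100a8 with -0.63 and S100a9 with -0.58, while Csf3r, the most abundant, had 0.25 and Cxcr2, the chemokine receptor of circulating neutrophils, 0.39. The list summed to 559, 913, 727 and 703 CPM in control mice and 679, 605, 463 and 825 CPM in tRA mice. Csf3r (means of 237 CPM in control and 282 CPM in tRA mice) and S100a9 (283 and 189 CPM) made up most of this sum and differed in direction. For Ly6g, S100a8 and S100a9, tRA mice 1, 2 and 3 lay below every control mouse, and the lowest was mouse 2 for Ly6g and mouse 3 for S100a8 and S100a9, whereas it was mouse 1 for Elane, Mpo and Prtn3. Deviations of S100a8 and S100a9 had r of 0.0941 and 0.106 with those of the enzymes.

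**Figure D2:**
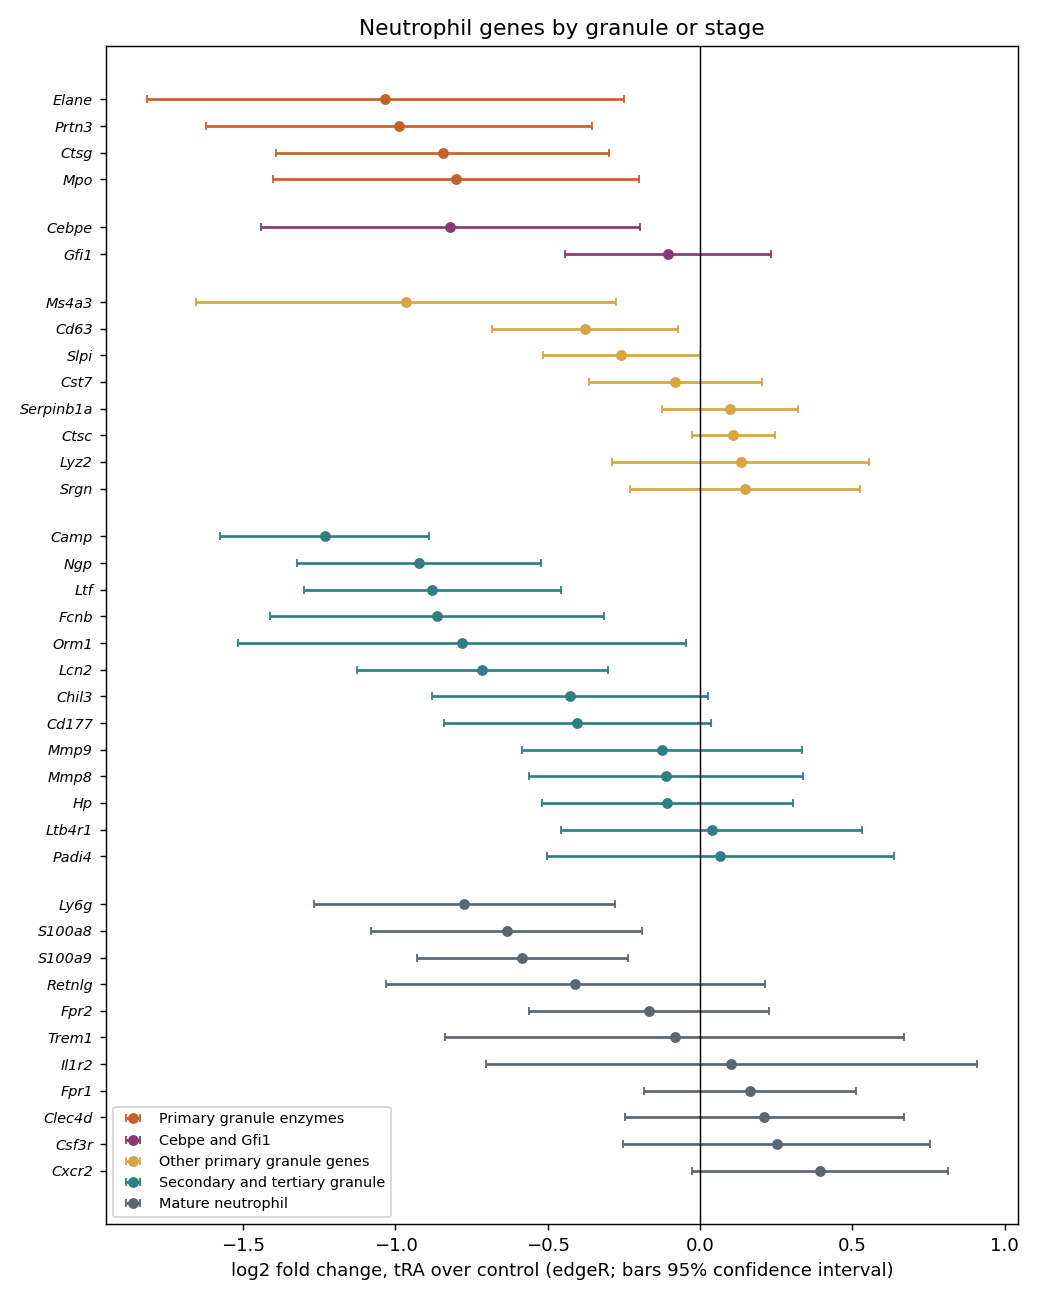
Log2 fold change of tRA over control (horizontal axis) with its 95% confidence interval from edgeR for the 6 genes and for the tested genes of the primary granule partner, secondary and tertiary granule and mature neutrophil lists (vertical axis, sorted within each list). Elane, Prtn3, Ctsg, Mpo and Cebpe lie between -1.03 and -0.80, as Ms4a3 does at -0.97, Gfi1 and Ctsc have intervals that include 0, and the outermost values are those of Camp at -1.23 and Cxcr2 at 0.39.

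Markers of other splenic cells were examined beside the 6 genes. Monocyte genes (10 of 10 tested), erythroid genes (14 of 14), B cell genes (8 of 8), T cell genes (8 of 8), NK cell genes (6 of 7), red pulp macrophage genes (9 of 9), megakaryocyte and platelet genes (6 of 9), genes of basophils, mast cells and eosinophils (8 of 11) and cell cycle genes (15 of 15) each had 0 genes lower and 0 higher at an unadjusted p under 0.05 by edgeR. In the same order their median log2 fold changes were -0.06, 0.06, 0.02, 0.11, -0.06, -0.04, -0.15, -0.04 and -0.02, against -0.83 for the 6 genes. Some of these medians depend on single mice or on which genes enter the fit. That of erythroid genes was -0.31 without tRA mouse 3 and 0.33 without control mouse 2. Those of cell cycle and red pulp macrophage genes were -0.28 and -0.23 without tRA mouse 3. For megakaryocyte and platelet genes it was -0.35 without control mouse 4 and -0.36 with DESeq2. By edgeR with no filter on low counts it was -0.36 too, and both of these fits take in genes below the filter. For genes of basophils, mast cells and eosinophils it was 0.16 without tRA mouse 1 and -0.21 without tRA mouse 4. By edgeR at an unadjusted p under 0.05, 3 of 7 plasma cell genes were lower (Jchain, Tnfrsf17 and Mzb1) and 0 higher. This compares with 3.55% of all genes tested that were lower. The plasma cell genes had a median log2 fold change of -0.17, with 4 negative and 3 positive. Their sum, led by Jchain, was 1071, 1026, 1044 and 1230 CPM in control mice and 944, 1071, 810 and 821 CPM in tRA mice, and its part in the result was not tested. Erythroid genes, led by Hbb-bs, were uneven in both groups. They summed to 1016, 1816, 2649 and 648 CPM in control mice 1 to 4. In tRA mice 1 to 4 they summed to 2470, 812, 3920 and 769 CPM, and their part in the result was not tested.

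Single genes of these lists had wider values than the medians, none of them at an unadjusted p under 0.05 by edgeR outside the plasma cell list. The lowest and highest log2 fold changes were those of Nr4a1 (-0.44) and Fn1 (0.49) among monocyte genes, Hba-a2 (-0.19) and Hbb-bt (0.80) among erythroid genes, Cd79a (-0.13) and Ms4a1 (0.20) among B cell genes, Cd3d (-0.12) and Cd3e (0.21) among T cell genes and Gzma (-0.13) and Ncr1 (0.27) among NK cell genes. They were those of Cd5l (-0.29) and Adgre1 (0.04) among red pulp macrophage genes, Pf4 (-0.49) and Gp5 (0.03) among megakaryocyte and platelet genes, Ear2 (-0.30) and Ms4a2 (0.47) among genes of basophils, mast cells and eosinophils, Birc5 (-0.28) and Mki67 (0.10) among cell cycle genes, and Tnfrsf17 (-0.78) and Prdm1 (0.11) among plasma cell genes. Of the most abundant genes, Ighd had 0.16, Lck -0.07, Hmox1 -0.18, Itga2b -0.10, Pcna -0.23, Hbb-bs 0.45 and Jchain -0.46.

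Genes of the retinoid response were also set beside the 6 genes. Of 13 receptors and targets, 10 were tested, with 0 lower and 0 higher at an unadjusted p under 0.05 by edgeR and a median of -0.01. Rara, the most abundant, had a log2 fold change of 0.08 and Rarb, itself a target of retinoic acid, 0.43 (edgeR p of 0.0637), while Stra6 had -0.52.

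Elane, Prtn3 and Ctsg sit in clusters of serine protease genes, and most of their relatives in these clusters did not pass the filter on low counts. Of 15 neighbouring protease genes, 5 were tested, and 0 were lower and 0 higher at an unadjusted p under 0.05 by edgeR. The median was -0.10, but -0.50 with DESeq2 and -0.53 with no filter on low counts, 2 fits that take in genes below the filter. Gzmd, Gzme and Gzmg had 0 counts in all 8 libraries, Cfd, a protease gene near Elane, had 0 to 2 counts, and Gzmb, the most abundant, had a log2 fold change of 0.01. Mcpt8, the nearest tested gene before Ctsg, had 0.03, and Mcpt1 had the lowest value, -0.91 (edgeR p of 0.120).

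Tested genes next to the 6 were looked up after the values of the 6 had been seen. Around Prtn3 and Elane, Ptbp1 had a log2 fold change of 0.02, Plppr3 -0.11 and Med16 -0.07, so the lower level did not extend to the genes on either side. Around Mpo, Mks1 had 0.05 and Tspoap1 -0.58 (edgeR p of 0.109), and Slc7a8, next to Cebpe, had -0.06, all with overlap between the groups.

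Some of the 6 genes share positions with other annotated genes, and whether counting used the strand is not stated, so that shared reads cannot be assigned. Prtn3 shares the bases from 79874476 to 79874634 with Plppr3 on the opposite strand. Mpo is overlapped by the antisense gene Gm11505, which had 0 counts in all 8 libraries. Gfi1 overlaps A430072P03Rik on the opposite strand, which had 17 to 38 counts, against 431 to 709 for Gfi1.

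Because the enzymes were lower together, the 250 bases before their RefSeq starts were searched for short motifs of factors known in granulocyte progenitors, in the RefSeq promoter table for GRCm38.p6. Of the 6 genes, 5 matched the table by symbol, and Cebpe was not among them. The RefSeq start is that of the GENCODE gene for Ctsg, but lies 65 bases inside the GENCODE gene given above for Elane, 203 for Mpo and 5191 for Prtn3, so the windows of Elane and Mpo reach into the GENCODE gene and that of Prtn3 lies wholly in it. Gfi1 has 2 windows, with RefSeq starts 231 and 1693 bases inside its GENCODE gene. On both strands, GAGGAA, the core of PU.1 sites, was found in Elane, Mpo, Prtn3 and Ctsg and not in Gfi1, and it was present in 23.3% of the 32851 promoters. The sequences are shown because this was the planned motif that all 4 enzymes had. They are written 5′ to 3′ on the strand of the gene with the match in capitals, from the plus strand at chr10:79886215-79886244 for Elane, chr11:87793548-87793577 for Mpo and chr10:79879560-79879589 for Prtn3, and from the minus strand at chr14:56102773-56102802 for Ctsg.
Elane: tcgtgtcccaggGAGGAAgtagggctgtgg
Mpo: tgtggagagagaGAGGAAgttgcctttgtc
Prtn3: ccaaactggaagGAGGAAgtgggacccaca
Ctsg: ctcccagaaggaGAGGAAgaaaaggaagta

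The match begins 85 bases before the RefSeq start in Elane and 95 in Prtn3, the neighbouring pair, and 224 in Mpo and 216 in Ctsg. Mpo has another match 247 bases before its RefSeq start. A match is a run of letters in the window and no measurement of binding.

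The planned Myb motifs were counted singly, and neither was in Prtn3 or Gfi1. CAACTG occurred in Ctsg and in 11.1% of all promoters, and TAACNG in Elane and Mpo and in 19.8%. The looser CAACNG, which contains CAACTG and was added after the sequences were seen, occurred in Elane, Prtn3 and Ctsg and in 29.3%. In Elane and Prtn3 the match is the same 6 letters at a like distance, 51 and 56 bases before the RefSeq start and inside the GENCODE gene, at chr10:79886249-79886278 and chr10:79879599-79879628 on the plus strand, and both are shown for this likeness with the match in capitals.
Elane: gatggggcaataCAACGGcctctggttcca
Prtn3: ttagccactgttCAACGGctcccggcagag

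Of the other motifs, TTGCNNAA of C/EBP factors was in Gfi1 and in 9.56% of all promoters, and TGTGGT of Runx factors was in Ctsg and in 14% of them. AAATCA of Gfi1 and AGGTCA, the unit that retinoic acid receptors bind in pairs, were in none of the 5 genes and in 12.4% and 14% of all promoters, which says only that these letters are not in these windows.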

How the data were processed

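Splenocyte RNA was sequenced as paired-end TruSeq v2 libraries, and the authors deposited raw counts per Ensembl gene. The study's methods name Tophat2 and HTSeq, whereas the submitters' processing notes name STAR 2.5.2b, featureCounts 1.5.1, DESeq2 1.26.0 and GRCm38. Of 51826 identifiers, 51633 matched GENCODE M21, which gave symbols and positions. Counts were filtered by filterByExpr (minimum 10), scaled by TMM and tested with edgeR 4.0.16 in R 4.3.3, after tests on simulated data. Alternatives were DESeq2 1.42.0, limma-voom 3.58.1, other scalings and filters, protein-coding genes only, the replicate block and each mouse left out. No pair of libraries in a group agreed within sampling noise. The members and lists were chosen with earlier results of these data known. Some genes stand in more than 1 list, such as Csf3r, Rara, Gzmb and Mcpt8. Named were the 6 genes, all partners and regulators, the most abundant, highest and lowest gene of each other list, Camp, Ngp, Ltf and the 10 genes most like the enzymes, of which 1 is not reported here. S100a8, S100a9, Mzb1, Cfd, Gzmd, Gzme, Gzmg and neighbouring or overlapping genes were named after their values were seen. Plots were drawn with matplotlib 3.10.9. Protein identity was planned and not run. The authors' own fold changes and p-values were not used.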

Additional observations from a re-analysis of the deposited data

Results flagged for a closer look

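In each group of 4 mice, the gap between the highest or lowest mouse and its nearest neighbour was compared with the whole range for 79 named genes. Of 158 groups examined, 5 had a mouse far from the others, where chance gives about 1 in 20. None of these was a group of Elane, Mpo, Prtn3, Ctsg, Cebpe or Gfi1. For Camp, tRA mouse 4 had 42.7 CPM against 25.2 to 26.9 in the other tRA mice, nearer to the control mice. For Cst7, an inhibitor of the protease that activates elastase, tRA mouse 3 had 13.4 CPM against 11.4 to 11.6. The T cell gene Lck had 568 CPM in tRA mouse 1 against 477 to 491. The platelet genes Pf4, with 0.722 CPM in control mouse 3 against 0.249 to 0.325, and Gp5, with 0.641 CPM in tRA mouse 1 against 0.271 to 0.315, were the others.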

How the results depend on the processing

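All 6 genes kept a negative log2 fold change under every alternative. By edgeR and limma-voom none of the 6 had an FDR under 0.1 under any alternative, and 5 of the 6 were lower at an unadjusted p under 0.05 in each, against 2.37% (without tRA mouse 4) to 7.68% (without tRA mouse 1) of all genes. With each mouse left out of the edgeR test, the log2 fold change ranged from -1.36 to -0.75 for Elane, -1.11 to -0.59 for Mpo, -1.18 to -0.74 for Prtn3, -0.95 to -0.69 for Ctsg, -1.13 to -0.66 for Cebpe and -0.27 to -0.013 for Gfi1. In DESeq2 with a mouse left out, chosen after seeing the data, 2 of the 6 genes passed an FDR of 0.1 in each of 3 fits, which were those without tRA mouse 1 (log2 fold changes of -0.75 for Elane and -0.74 for Prtn3), without tRA mouse 3 (-1.11 for Mpo and -1.18 for Prtn3) and without tRA mouse 4 (-1.36 for Elane and -1.13 for Cebpe). Elane, Prtn3, Ctsg and Cebpe got no adjusted p from DESeq2 without control mouse 4. The number of genes at an FDR under 0.1, which was 0 in edgeR, was 27 with DESeq2, 1 with limma-voom and 6 with no filter on low counts. Leaving out single mice gave counts from 0 to 3, and the fit without tRA mouse 4 gave the 3. In DESeq2 it was 17, 23, 26 and 17 without control mice 1 to 4 and 551, 15, 20 and 20 without tRA mice 1 to 4. In these DESeq2 fits with a mouse left out, 153 list medians stayed within the spread between mice and 15 moved beyond it. Of the list medians recomputed under the other alternatives, 331 stayed within that spread and 5 moved beyond it. These were serine protease neighbours (-0.50 with DESeq2 and -0.53 with no filter on low counts), early progenitors (-0.22 without tRA mouse 3), primary granule partners (-0.11 without control mouse 1) and all genes tested (0.031 with library size alone). For the serine protease neighbours, both fits also took in genes below the filter on low counts. The cause of the other shifts was not tested. Same-numbered mice of the 2 groups had correlations of 0.157, -0.0229, -0.014 and 0.259 in their deviations. Differently numbered mice were not compared, so these values cannot tell whether the numbers pair the mice. In the fit with the replicate block, the count stayed at 0 and the log2 fold change of Elane was -1.15. The edgeR p with the block was 0.00430 for Elane and 0.00103 for Mpo, lower than without it, and 0.0167 for Ctsg, higher than without it. Low counts limit Elane, Prtn3, Ctsg and Cebpe, which had 18 to 125 counts per mouse.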
